A study of Mus musculus with 2 samples.

Results

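The 10 genes described here encode subunits of the machinery that lets RNA polymerase II leave promoters and travel along genes in chromatin. They are Cdk9, Ccnt1, Ccnt2, Hexim1, Supt5h, Supt6h, Cdc73, Paf1, Leo1 and Ctr9, chosen by name for their role in elongation among 22208 protein-coding genes, with no measured value in the rule. The occupancy of Msl1 and Nsl1 at these genes was read from chromatin immunoprecipitation followed by sequencing (ChIP-seq) in mouse embryonic stem cells (mESCs). The mESCs were wild type, of the E14 line on a 129P2/OlaHsd background at passage P26, and had been grown on feeder fibroblasts and then for 1 passage without them before formaldehyde crosslinking. The groups were chromatin precipitated with an antibody against Msl1 and chromatin precipitated with an antibody against Nsl1, with 1 library each. A single library stood for each antibody, so samples could not be tested against each other and no p-value is given.

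P-TEFb, the kinase Cdk9 with a cyclin T subunit (Ccnt1 or Ccnt2), phosphorylates the paused polymerase and the factors that hold it, which lets elongation start. Hexim1, bound to the 7SK RNA, keeps part of the P-TEFb of a cell inactive. Supt5h is the Spt5 subunit of DSIF, which takes part first in pausing and then in elongation, and Supt6h (Spt6) is a histone chaperone that travels with the polymerase. Paf1, Ctr9, Leo1 and Cdc73 are subunits of the Paf1 complex, which binds elongating polymerase and is needed for histone modifications laid down during transcription. Msl1 and Nsl1 are scaffold subunits of the MSL and NSL complexes, which share the histone acetyltransferase Mof.

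The Msl1 library held 19483142 distinct nuclear reads of 50 bases and the Nsl1 library 24883001 of 36 bases. Repeated positions were 18.3% and 4.56% of the nuclear reads. The libraries were prepared with different kits, so the antibody, the kit and the read length cannot be told apart in any difference between them. At 6 genes that mark mESCs the level within 500 bases of the transcription start site (TSS), over the local level of the same library, ran from 1.46 at Sox2 to 2.72 at Pou5f1 in the Msl1 library and from 0.590 at Esrrb to 2.29 at Nanog in the Nsl1 library. At 4 genes of unrelated tissues it ran from 0.585 to 1.16 and from 0.690 to 1.52. At the feeder fibroblast markers Col1a1, Col1a2 and Thy1 it ran from 1.5 to 2.55 and from 0.916 to 1.92. These values are occupancy and not expression. In both libraries the ranges at mESC and fibroblast markers overlapped, so the values do not tell these cell types apart.

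Occupancy was measured as the reads within 500 bases on either side of a TSS divided by the reads per kb between 5 and 50 kb on both sides, the local level. No input library was used, so the part of a level that does not come from the antibody was not tested. Intervals are exact 95% binomial intervals that cover counting error only. The percentile of a level is its rank among the 17348 protein-coding TSSs with at least 20 reads in the 2 libraries together, and all 10 genes passed that minimum. Among these TSSs 29.7% lay at 3 times the local level or more in the Msl1 library and 30.1% in the Nsl1 library. Genes enter this set whether or not the cells use them.

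In the Nsl1 library 6 of the 10 genes lay at 3 times the local level or more, against 30.1% of all TSSs: Ccnt1, Ccnt2, Supt5h, Supt6h, Paf1 and Ctr9. In the Msl1 library Ctr9 was the 1 gene of 10 at that level, against 29.7% of all TSSs. The median level was 3.19 times local for Nsl1, beside 2.03 over all TSSs, and 2.29 for Msl1, beside 2.22. Leaving the lowest and the highest gene aside, the Nsl1 levels ran from 2.40 to 5.48 and the Msl1 levels from 1.78 to 2.94. All 10 Msl1 intervals lay above 1, against 66.7% of all TSSs, as did 9 of the 10 Nsl1 intervals, against 63.2%, the exception being Cdk9. For Msl1 the genes ranked from the 35.3rd percentile at Leo1 to the 88.9th at Ctr9. For Nsl1 Cdk9 ranked at the 23.4th percentile and the other 9 genes from the 59.2nd at Hexim1 to the 91.4th at Ccnt1. Over the level of the whole genome in place of the local one, the Msl1 median was 3.98, beside 2.30 over all TSSs, and 7 of the 10 genes lay at 3 times that level or more, against 33% of all TSSs. The local Msl1 level was above the genome level at 9 of the 10 genes, all but Cdc73, against 56.5% of all TSSs. From the RefSeq starts, Ccnt1 and Supt6h passed 3 times local as well, which made the Msl1 count 3.

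**Figure D1:**
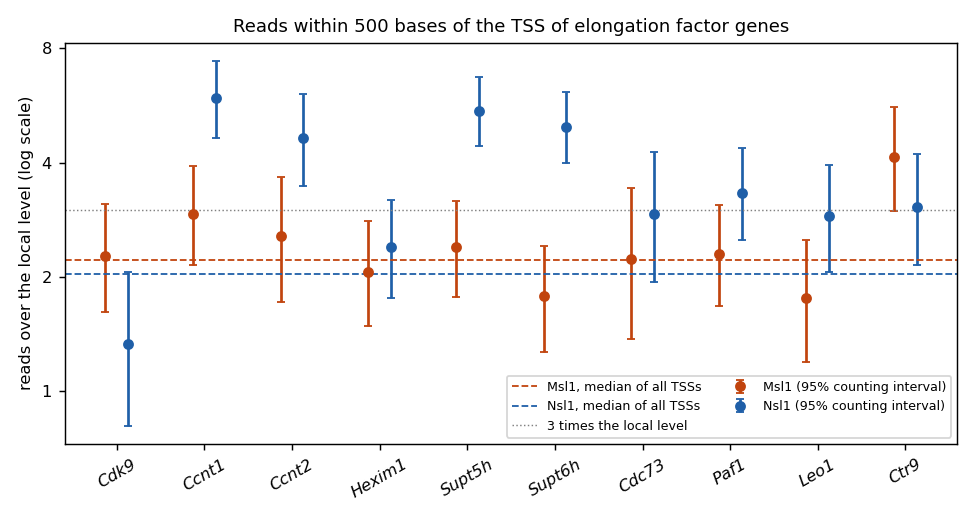
Reads within 500 bases of the TSS over the local level (value axis) at each of the 10 genes (gene axis), with exact 95% intervals as bars, for the Msl1 and the Nsl1 library. Nsl1 reached 5.91 at Ccnt1 and 5.48 at Supt5h and was 1.33 at Cdk9, while Msl1 stayed between 1.76 and 2.94 except at Ctr9, with 4.13.

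Promoters of genes with the highest or the lowest levels among the 10 are printed to show their sequence. Within 500 bases and over the local level, Ccnt1 and Supt5h had the highest Nsl1 levels, Ctr9 the highest Msl1 level, and Hexim1 and Cdk9 the lowest Nsl1 levels. The Nsl1 level of Hexim1, 2.40, was still above the median of all TSSs, 2.03. Leo1, which had the lowest Msl1 level, is not printed. With another window or background other genes led, as given below. Each sequence runs 5′ to 3′ on the strand of the gene from 250 bases before the TSS to 49 bases after it, on mm9 (NCBIM37). Capitals mark matches, on either strand, to the CCAAT box (CCAAT), the GC box bound by Sp1 (GGGCGG), an Ets type site (ACTTCCG), an Nrf1 site (CGCATGCG) or a YY1 type site (GATGGCG). Where an Ets type site overlaps a GC box, as in Ccnt1, they form 1 run of capitals.
Ccnt1, chr15:98398018-98398317, minus strand: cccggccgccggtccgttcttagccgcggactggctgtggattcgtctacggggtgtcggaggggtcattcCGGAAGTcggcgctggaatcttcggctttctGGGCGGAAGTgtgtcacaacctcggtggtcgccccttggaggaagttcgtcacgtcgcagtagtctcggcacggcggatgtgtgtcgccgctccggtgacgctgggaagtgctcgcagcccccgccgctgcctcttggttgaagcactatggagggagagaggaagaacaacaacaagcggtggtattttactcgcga
Supt5h, chr7:29123689-29123988, minus strand: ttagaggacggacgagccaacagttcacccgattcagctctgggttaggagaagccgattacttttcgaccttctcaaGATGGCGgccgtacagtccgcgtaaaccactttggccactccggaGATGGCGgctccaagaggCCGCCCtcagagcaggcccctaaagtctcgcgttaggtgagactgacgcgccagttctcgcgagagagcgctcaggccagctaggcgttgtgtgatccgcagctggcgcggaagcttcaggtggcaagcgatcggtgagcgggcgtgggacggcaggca
Ctr9, chr7:118172215-118172514, plus strand: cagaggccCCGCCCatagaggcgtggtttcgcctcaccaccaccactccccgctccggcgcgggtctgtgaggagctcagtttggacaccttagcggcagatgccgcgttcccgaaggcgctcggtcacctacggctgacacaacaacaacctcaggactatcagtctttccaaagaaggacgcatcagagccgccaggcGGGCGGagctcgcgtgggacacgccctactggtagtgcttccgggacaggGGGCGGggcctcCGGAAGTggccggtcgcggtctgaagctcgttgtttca
Hexim1, chr11:102977389-102977688, plus strand: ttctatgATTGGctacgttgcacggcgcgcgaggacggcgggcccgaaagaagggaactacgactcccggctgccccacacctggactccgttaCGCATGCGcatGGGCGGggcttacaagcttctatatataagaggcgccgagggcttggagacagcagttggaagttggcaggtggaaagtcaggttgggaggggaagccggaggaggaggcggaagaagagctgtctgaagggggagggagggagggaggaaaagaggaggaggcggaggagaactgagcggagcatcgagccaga
Cdk9, chr2:32568255-32568554, minus strand: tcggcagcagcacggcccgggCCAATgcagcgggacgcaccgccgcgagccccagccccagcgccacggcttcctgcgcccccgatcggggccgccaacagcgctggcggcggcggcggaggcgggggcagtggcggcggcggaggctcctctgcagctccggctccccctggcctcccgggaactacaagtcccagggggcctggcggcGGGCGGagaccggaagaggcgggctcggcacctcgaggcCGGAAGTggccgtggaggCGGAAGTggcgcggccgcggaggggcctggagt

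A GC box was found in all 10 promoters, against 45.1% of the 22208 promoters searched over the same window. The Ets type site occurred in the promoters of Cdk9, Ccnt1 and Ctr9, against 8.20% of all promoters. In Ccnt1 it occurred at 2 places and in Cdk9 at 2 places, of which 1 spans the TSS itself, with its last base 5 bases downstream. The YY1 type site occurred in Supt5h, at 2 places that start at positions -172 and -127 from the TSS, against 4.43% of all promoters. The Nrf1 site occurred in Hexim1, against 2.29%. Matches to CCAAT were found in Cdk9, Ccnt2, Hexim1 and Paf1, against 37.7% of all promoters. Neither TATAAA (13.3% of all promoters) nor the E-box CACGTG (7.79%) was found in any of the 10 windows. Promoters with a high Nsl1 level thus shared no searched motif other than the GC box, which the promoters with the lowest levels of the 10 held too.

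The 10 TSSs lay in DNA rich in CpG. Within 500 bases of the TSS the observed number of CpG dinucleotides over the number expected from base composition ran from 0.729 at Hexim1 to 1.02 at Ccnt1. The median was 0.664 over the 17348 TSSs with at least 20 reads. The GC content ran from 55.2% at Supt6h to 73.6% at Cdk9, against a median of 57.6% and a 90th percentile of 68.0% over the same 17348 TSSs. Cdk9, the gene with the lowest Nsl1 level, was thus the gene with the highest GC content, and the part of base composition in its level was not tested.

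Of the P-TEFb genes, Cdk9 on chromosome 2 (minus strand, TSS at 32568304) had 40 Msl1 reads within 500 bases, 2.28 times the local level (1.62 to 3.11), and 20 Nsl1 reads, 1.33 times (0.811 to 2.06). Its Nsl1 level lay at the 23.4th percentile, and its interval spanned 1. At another protein-coding start of Cdk9, 517 bases downstream, Msl1 stood at 3.37 times local with 59 reads and Nsl1 at 1.72 times with 26. At its 5′-most start, at position -292, Msl1 stood at 1.47 times local. Of the 10 genes, Cdk9 thus had the fewest Nsl1 reads at its TSS, and neither of these starts put Nsl1 at 3 times local. The annotation also places 2 miRNA genes on the same strand, at positions -188 and -104 from the TSS of Cdk9.

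The cyclin T genes had high Nsl1 levels. Ccnt1 (chromosome 15, minus strand, TSS at 98398067) had 80 Nsl1 reads, 5.91 times local (4.65 to 7.42), at the 91.4th percentile, and 47 Msl1 reads, 2.94 times (2.15 to 3.92). Ccnt2 (chromosome 1, plus strand, TSS at 129670741) had 55 Nsl1 reads, 4.64 times local (3.47 to 6.09), and 30 Msl1 reads, 2.56 times (1.72 to 3.68). For both cyclins the Nsl1 interval lay wholly above that of Cdk9, the kinase they activate. The TSS of Ccnt1 lies near that of a noncoding gene on the other strand, 9330020H09Rik, 312 bases downstream, and reads at the pair cannot be told apart. At the start of the 5′-most Ccnt1 transcript, at position -3287, both libraries were near local, with 0.928 times for Msl1 (15 reads) and 1.05 times for Nsl1 (14 reads).

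Hexim1, the inhibitor, is a gene of 1 exon of 3401 bases (chromosome 11, plus strand, TSS at 102977639). Within 500 bases it had 42 Msl1 reads, 2.06 times local (1.48 to 2.80), and 48 Nsl1 reads, 2.40 times (1.76 to 3.19), both near the middle of all TSSs. Within 2 kb it had 302 Msl1 reads, more than any other of the 10 genes, where the lowest number was 78, at Cdc73.

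Within 500 bases and over the local level, both Spt genes had high Nsl1 levels and Msl1 levels near the middle of all TSSs or below. Supt5h (chromosome 7, minus strand, TSS at 29123738) had 97 Nsl1 reads, the highest number of the 10 genes, 5.48 times local (4.42 to 6.73), and 50 Msl1 reads, 2.39 times (1.77 to 3.17). Supt6h (chromosome 11, minus strand, TSS at 78059489) had 94 Nsl1 reads, 4.98 times (4.0 to 6.13), and 41 Msl1 reads, 1.78 times (1.27 to 2.42). In both genes the Nsl1 interval lay above the Msl1 interval, as it did in Ccnt1 (4.65 to 7.42 against 2.15 to 3.92). The share of all TSSs with such intervals was not computed. Over the genome level Supt5h had the highest Msl1 level of the 10 genes. Supt6h stood at 3.94 there, beside a median of 2.30 over all TSSs. With 1000 bases on each side Msl1 stood at 2.95 times local at Supt6h and at 1.89 at Supt5h, beside 2.09 over all TSSs. Supt6h shares its promoter region with Sdf2, a protein-coding gene on the other strand whose TSS lies 241 bases within Supt6h. Reads at Supt6h and Sdf2 cannot be told apart. RefSeq places the start of Supt6h 284 bases downstream, at 78059205, and there Msl1 stood at 3.38 times local (2.66 to 4.24) and Nsl1 at 5.46 (4.43 to 6.66). The Msl1 level of Supt6h thus moved from below to above the 3-fold line with the start used, whereas Nsl1 stayed above it.

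The Paf1 complex genes had Nsl1 levels close to each other. Paf1 (chromosome 7, plus strand, TSS at 29177970) stood at 3.34 times local with 55 reads, Ctr9 (chromosome 7, plus strand, TSS at 118172465) at 3.05 with 38, Cdc73 (chromosome 1, minus strand, TSS at 145550023) at 2.93 with 28 and Leo1 (chromosome 9, plus strand, TSS at 75289331) at 2.89 with 41. The intervals of these 4 genes overlapped, and the widest ran from 1.94 to 4.27, at Cdc73. For Msl1, Ctr9 stood at 4.13 times local with 44 reads (2.98 to 5.59), at the 88.9th percentile, Paf1 at 2.30 with 45, Cdc73 at 2.23 with 21 and Leo1 at 1.76 with 31. The Msl1 interval of Ctr9, the scaffold subunit of the complex, lay above that of Leo1, 1.19 to 2.51, and overlapped those of Paf1, 1.67 to 3.09, and Cdc73, 1.38 to 3.44. Paf1 shares a promoter region with Med29, a Mediator subunit gene on the other strand whose TSS lies at position -243. Reads at Paf1 and Med29 cannot be told apart. The TSSs of Paf1 and Supt5h lie 54232 bases apart, so their local levels share sequence.

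In decreasing order the Nsl1 level ran from Ccnt1 through Supt5h, Supt6h, Ccnt2, Paf1, Ctr9, Cdc73, Leo1 and Hexim1 to Cdk9, and the intervals of every pair of neighbours in this order overlapped. The intervals of Ccnt1, Supt5h and Supt6h, which start at 4.65, 4.42 and 4.0, lay above those of Leo1, Hexim1 and Cdk9, which end at 3.94, 3.19 and 2.06. For Msl1 the order ran from Ctr9 through Ccnt1, Ccnt2, Supt5h, Paf1, Cdk9, Cdc73, Hexim1 and Supt6h to Leo1, and neighbours overlapped there too. The Nsl1 level was higher than the Msl1 level at 8 of the 10 genes, against 52.3% of all TSSs, the exceptions being Cdk9 and Ctr9. The order of the genes and that of the libraries depended on the window and the background. For Msl1, Ccnt2 led with 1000 bases on each side, at 4.35, and Leo1 stayed lowest, at 1.67. Over the genome level Supt5h led for Msl1, and Cdc73 was lowest, at 2.02. For Nsl1, Ccnt1 still led with 1000 bases, at 3.99, and Supt5h led over the genome level, at 7.29. Cdk9 stayed lowest for Nsl1 in both. With 1000 bases on each side Nsl1 was higher at 5 of the 10 genes, against 43.3% of all TSSs, and the median level was 2.74 in the Msl1 library and 2.31 in the Nsl1 library, beside 2.09 and 1.73 over all TSSs. Against the genome level Nsl1 was higher at 6 of the 10, against 46.3% of all TSSs, with medians of 3.98 and 3.87, beside 2.30 and 1.88.

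The libraries were compared within 2 kb of the TSS as Msl1 reads over Nsl1 reads, each per read of its library. Of 14529 TSSs with at least 100 such reads together, 13.2% had a ratio of 2 or more and 1.49% a ratio of 0.5 or less. Percentiles of this ratio are ranks among these 14529 TSSs. Of the 10 genes, Cdk9 and Hexim1 reached 2 and none lay at 0.5 or less. Hexim1 had 302 Msl1 and 142 Nsl1 reads, a ratio of 2.72 (2.22 to 3.34), at the 96.8th percentile. Cdk9 had 147 and 78 reads, a ratio of 2.41 (1.82 to 3.21), at the 94.1st percentile. Per library total the kinase and its inhibitor thus had the largest ratios of the 10 genes. With each library divided by its local level, Ctr9 (1.72) ranked between Hexim1 (2.09) and Cdk9 (1.61). At the other end Supt5h had 113 and 141 reads, a ratio of 1.02 (0.792 to 1.32), at the 28.8th percentile. The interval of Supt5h was the 1 of 10 that did not lie above 1, whereas 42.8% of all TSSs had an interval above 1.

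The median ratio over the 10 genes was 1.61, with values from 1.44 to 2.41 once the lowest and the highest gene are left aside, beside 1.28 over all TSSs, and 5 of the 10 intervals held the median of all TSSs, against 57.6% of the intervals of all TSSs. When each library was divided by its own local level, the median of the members was 1.16, beside 1.13 over all TSSs, and 1 gene, Hexim1, reached 2, against 8.38% of all TSSs. On the scale of library totals the ratio in the genes not yet given ran between 1.44 at Leo1 and 1.94 at Ccnt2. Over the local levels Leo1, Paf1 and Supt5h fell below 1, with ratios of 0.908, 0.988 and 0.679.

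The signals differed in where they lay. Bins are 250 bases wide and positions are bases from the TSS along the gene. Pooled over the 10 genes, Nsl1 was highest just before the TSS, at 4.76 times local between -250 and 0, and stood at 4.57 in the bin after it. Pooled Msl1 stood at 0.96 between -250 and 0, the bin where Nsl1 was highest, and at 4.43 between 250 and 500. Over all TSSs the same Msl1 bins stood at 1.44 and 3.33, and the same Nsl1 bins before and after the TSS at 3.43 and 3.38. Msl1 was lower in the members than over all TSSs in the 3 bins from -500 to 250 and higher in the bins from 250 to 1750 and from -1750 to -500. Without Hexim1, which held 31 of the 71 Msl1 reads from -1500 to -1250, that bin fell from 1.70 to 1.09 times local, below the 1.16 of all TSSs, and the bin from 1500 to 1750 fell from 2.11 to 1.47, below 1.52. In the other bins from -1750 to 1750 each gene could be left out without a change in the side of the value over all TSSs.

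**Figure D2:**
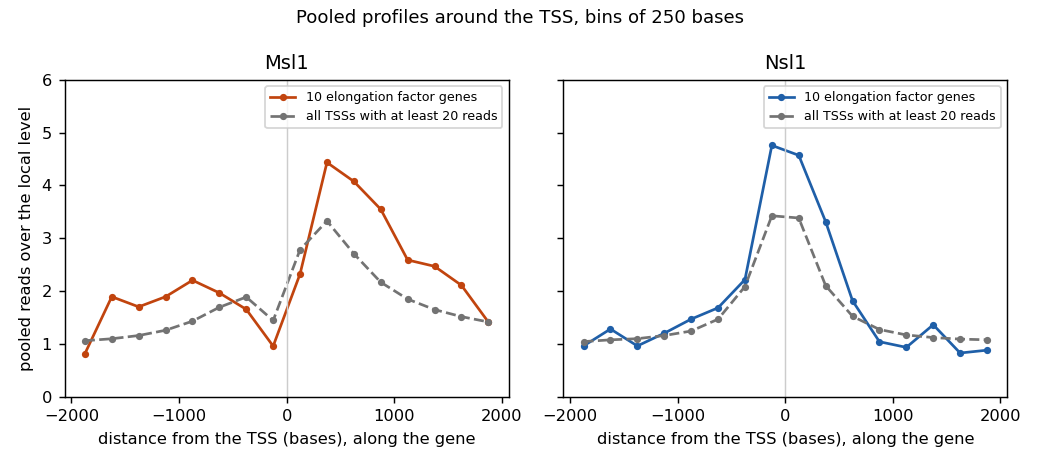
Pooled reads over the local level (vertical axis) in bins of 250 bases against the distance from the TSS in bases along the gene (horizontal axis), for the 10 genes (solid lines) and all TSSs with at least 20 reads (dashed lines), Msl1 left and Nsl1 right. Msl1 of the 10 genes rises from 0.96 before the TSS to 4.43 between 250 and 500 bases, and Nsl1 falls from 4.76 before the TSS to 1.04 between 750 and 1000 bases.

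The Msl1 level just before the TSS differed between the genes. Between -250 and 0, Cdk9 and Hexim1 had 1 Msl1 read each, which was 0.23 and 0.20 times local, and Ccnt1, Ccnt2, Paf1 and Leo1 had 2 each. The other 4 genes had 5 to 10 reads there, and Supt5h, Cdc73 and Ctr9 stood at 1.91, 2.13 and 2.63 times local. In the bin from 250 to 500 the 6 genes with 1 or 2 reads had between 18 and 22 Msl1 reads. The Nsl1 library had 36 reads at Ccnt1 and 25 at Ccnt2 between -250 and 0, which was 10.6 and 8.43 times local. All 10 genes had a higher Msl1 level between 250 and 500 than between -250 and 0, against 70.3% of all TSSs, and 3 of the 10 did for Nsl1, against 34.9%. With 1 or 2 reads in a bin the depth limits how low the level can be said to be.

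**Figure D3:**
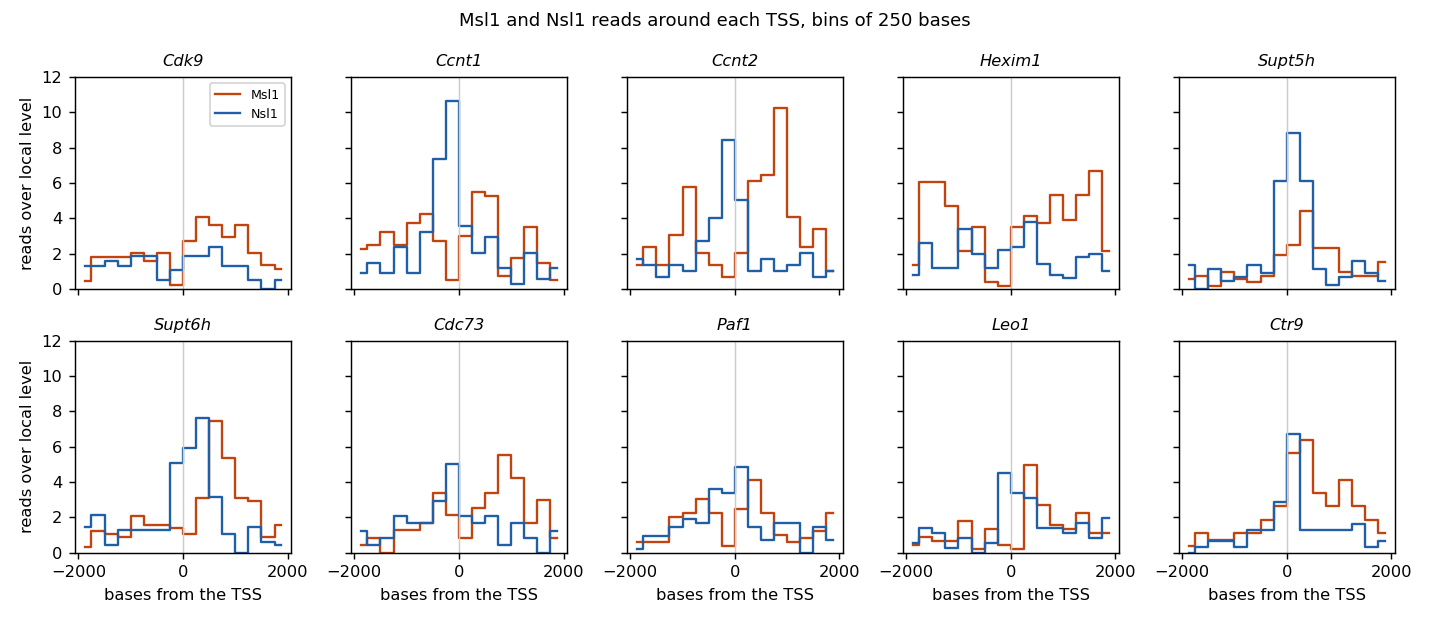
Reads over the local level (vertical axis) against the distance from the TSS in bases along the gene (horizontal axis) for each of the 10 genes, with a line for Msl1 and a line for Nsl1. Msl1 is at or below 0.68 times local between -250 and 0 in Cdk9, Ccnt1, Ccnt2, Hexim1, Paf1 and Leo1, and Nsl1 reaches 10.6 there in Ccnt1.

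The highest window of 200 bases within 2 kb of the TSS lay farther downstream for Msl1 than for Nsl1 in 8 of the 10 genes, against 64.8% of all TSSs, the exceptions being Cdk9 and Paf1. In 9 of the 10 genes the Msl1 window lay downstream of the TSS, against 74% of all TSSs, and Paf1 was the exception, with its window 500 bases upstream on the side of Med29. The Nsl1 window of Paf1 lay on that side too, centred 300 bases upstream with 19 reads. In Ccnt2 the Msl1 window was centred 850 bases downstream in intron 1 with 28 reads, 11.9 times local, whereas the Nsl1 window was centred 150 bases upstream of the TSS with 22 reads, 9.28 times. In Supt6h the Msl1 window was centred at 600 bases in intron 1 with 38 reads, 8.23 times local, and the Nsl1 window at 350 bases in exon 1 with 33 reads, 8.74 times. Cdc73 had its Msl1 window at 950 bases in intron 1 with 15 reads, 7.98 times local. In Hexim1, which has no intron, the Msl1 window was centred at 1450 bases inside the single exon with 32 reads, 7.86 times local.

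These positions can be set against the first exons. The centre of the Msl1 window was in intron 1 of Cdk9, Ccnt1, Ccnt2, Supt6h, Cdc73, Leo1 and Ctr9 and in intron 2 of Supt5h, whose exon 1 is 25 bases long. The first exons of the genes with introns ran from 25 bases in Supt5h to 440 bases in Supt6h. The centre of the Msl1 window fell past exon 1 in all of them but Paf1. The share of all genes with such a centre was not computed. Pooled over all TSSs, Msl1 was highest between 250 and 500 bases, at 3.33 times local. In Cdk9 and Ctr9 the Msl1 window itself, from 150 to 350 bases, began inside exon 1, which is 220 and 231 bases long. The highest Nsl1 window of the 10 genes was that of Supt5h, centred 200 bases downstream in intron 1, with 48 reads or 13.6 times local. The next was that of Ccnt1, centred 100 bases upstream, with 32 reads or 11.8 times local.

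Reads in the gene were compared with those at the TSS as the reads per kb between 500 and 2000 bases downstream over those within 500 bases. No background was taken from either count, so a high level at the TSS lowers this downstream ratio. Its percentiles are ranks among 17347 TSSs, those of the 17348 with reads of both libraries within 500 bases. Pooled over the 10 genes the downstream ratio was 1.15 (1.02 to 1.31) for Msl1 and 0.308 (0.265 to 0.358) for Nsl1, beside 0.817 and 0.472 pooled over all protein-coding TSSs. With the window from 1000 bases it was 0.916 for Msl1 and 0.270 for Nsl1, beside 0.704 and 0.439. All 10 genes had a larger downstream ratio in the Msl1 library, against 68.9% of all TSSs, and in 6 of the 10 the intervals did not overlap, against 17.7%. A Msl1 ratio of 1 or more was found in 5 of the 10 genes, against 31.3% of all TSSs. The 5 were Cdk9, Ccnt2, Hexim1, Supt6h and Cdc73, but the intervals of Cdk9 (0.720 to 1.65) and Cdc73 (0.813 to 2.47) held 1. Which genes reached 1 depended on the window and the start. Cdk9 fell to 0.9 with the window from 1000 bases and Supt6h to 0.675 from its RefSeq start. Ccnt1 rose to 2.18 from its 5′-most start.

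The largest Msl1 ratios were 2.19 (1.54 to 3.17) at Hexim1, at the 97.1st percentile, 2.0 (1.39 to 2.92) at Supt6h and 1.8 (1.17 to 2.84) at Ccnt2. The smallest were 0.593 (0.377 to 0.928) at Paf1, 0.600 (0.392 to 0.916) at Supt5h and 0.636 (0.407 to 0.994) at Ctr9. The intervals of the first 3 lay above those of the last 3, and the other 4 genes lay between them, from 0.752 at Ccnt1 to 1.40 at Cdc73. A small ratio did not always mean a local level downstream. At Ctr9 Msl1 stood between 1.13 and 4.13 times local in the bins from 500 to 2000 bases. With the window from 1000 bases the Msl1 ratio stayed at 2.19 at Hexim1. It fell to 1.20 at Supt6h and to 1.07 at Ccnt2, below the 1.10 of Cdc73. From the 5′-most starts the Msl1 ratio was 2.18 at Ccnt1 and 2.05 at Cdk9. For Nsl1 the ratio ran from 0.151 (0.0906 to 0.242) at Supt5h, at the 5.52nd percentile, to 0.767 (0.403 to 1.47) at Cdk9. Between 500 and 2000 bases Supt5h and Cdk9 had 22 and 23 Nsl1 reads. Their ratios thus differed through the reads within 500 bases, 97 at Supt5h and 20 at Cdk9. Supt5h was the lowest for Nsl1 with these starts and this window. With the window from 1000 bases Supt6h was lower, at 0.128 against 0.165 for Supt5h. From the RefSeq start of Supt6h its ratios between 500 and 2000 bases were 0.675 for Msl1 and 0.129 for Nsl1. With the RefSeq starts of all 9 matched genes, of which Ccnt1, Supt6h and Paf1 differ from those used here, the pooled Msl1 ratio was 0.979. Without any 1 gene the pooled Msl1 ratio ran from 1.03 to 1.23 and that of Nsl1 from 0.287 to 0.341.

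**Figure D4:**
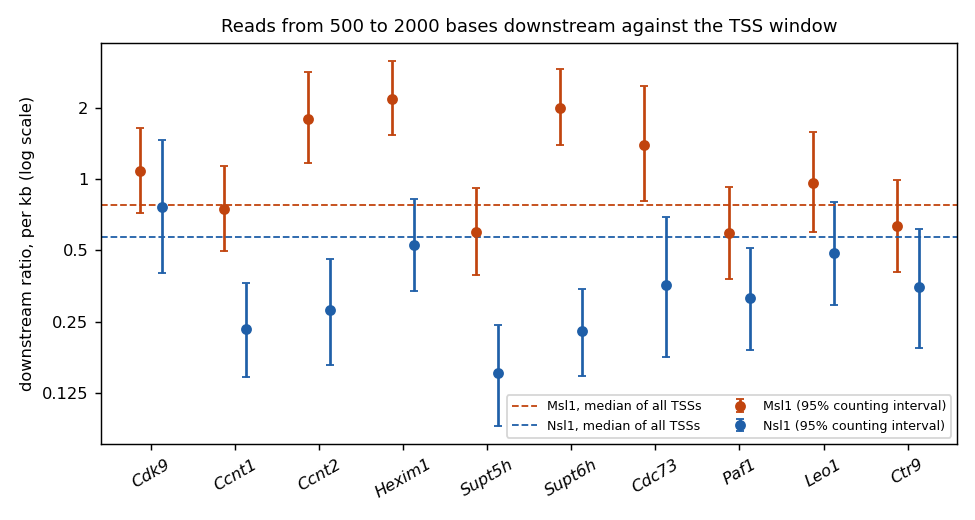
Reads per kb between 500 and 2000 bases downstream of the TSS over those within 500 bases (value axis) at each of the 10 genes (gene axis), with exact 95% intervals as bars, for both libraries. The Msl1 value is higher than the Nsl1 value in all 10 genes, from 0.593 at Paf1 to 2.19 at Hexim1 for Msl1 and from 0.151 at Supt5h to 0.767 at Cdk9 for Nsl1.

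Along whole genes, cut into 10 parts of equal length, the part next to the TSS was the highest in 9 of the 10 genes in each library, against 57% of genes for Msl1 and 46.6% for Nsl1 among those whose parts were at least 50 bases long. The exception for Msl1 was Hexim1, where the first 6 parts stood at 3.03, 4.77, 4.91, 4.04, 6.64 and 2.59 times local. Its parts 7 and 8 stood at 0.72 and 2.89, and the last 2 at 0.58 each. Upstream of Hexim1 the Msl1 level was also high, at 6.09 times local in both bins between -1750 and -1250 with 31 reads each. Reads were thus high on both sides of the TSS. Other annotated TSSs were searched for only within 1 kb of a member, so these bins were not covered by that search. The exception for Nsl1 was Cdc73, a gene of 104097 bases, where all parts lay near local and part 3 stood at 1.17.

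In Ccnt2, a gene of 33898 bases, Msl1 stood at 3.20 times local in part 1, at 1.94 and 2.29 in the next 2 parts, and between 1.21 and 1.64 in the rest. In Cdk9 it stood at 3.49 and 3.01 in parts 1 and 2 and at 0.97 to 2.19 in the others. In Supt5h Msl1 was 1.79 times local in part 1 and between 0.60 and 1.02 beyond it. The local Msl1 level was 20.9 reads per kb at Supt5h and 11.7 at Ccnt2, so equal values do not mean equal reads. In the longer genes the local level, from 5 to 50 kb on both sides, takes in much of the gene itself. Values near 1 past part 1 are partly set by this definition there. Past part 1, Msl1 stayed between 0.56 and 1.45 times local in Ccnt1, Supt6h, Cdc73 and Leo1, between 0.89 and 1.61 in Ctr9 and between 0.16 and 1.27 in Paf1. A part is 340 bases long in Hexim1 and 10410 bases in Cdc73, so the same part number covers different distances.

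**Figure D5:**
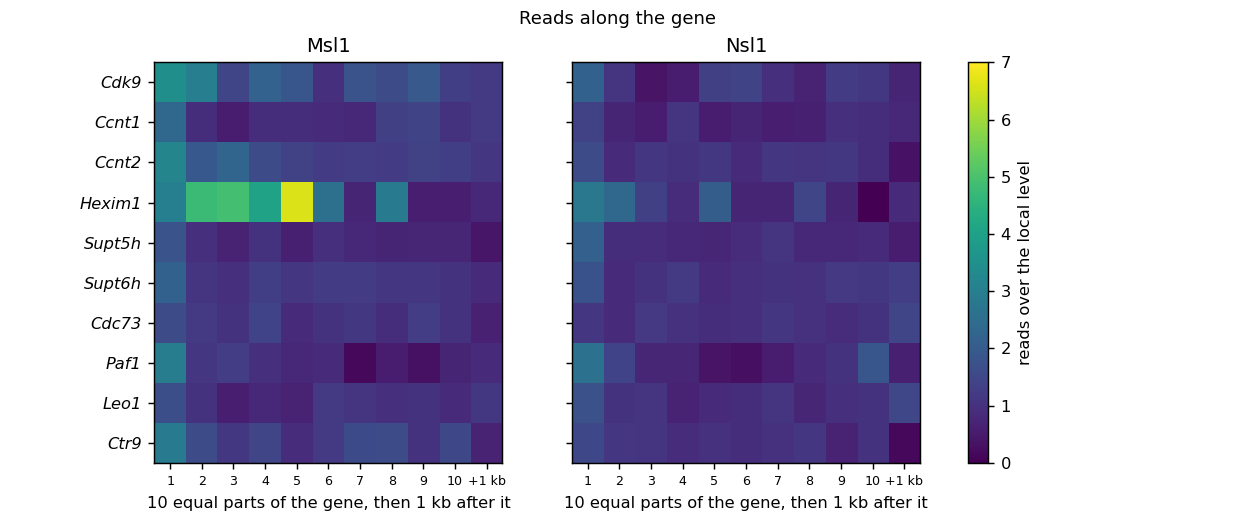
Reads over the local level (colour scale, from 0 to 7) in 10 equal parts of each gene and in the 1 kb after it (horizontal axis), for the 10 genes (vertical axis), Msl1 left and Nsl1 right. Hexim1 is the gene with Msl1 high through parts 1 to 6, up to 6.64 times local in part 5, and again in part 8, at 2.89. The other genes are highest in part 1 in the Msl1 library.

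The partners of these factors give a reference within the same pathway. Of 29 other elongation genes, 17 (58.6%) lay at 3 times local or more in the Nsl1 library and 14 (48.3%) in the Msl1 library, where the 10 members had 6 and 1, against 30.1% and 29.7% of all TSSs. Their medians were 3.38 for Nsl1 and 2.84 for Msl1. All 4 genes of NELF, which holds the polymerase in pause, passed 3 times local for Nsl1, with levels from 3.38 to 7.30. Both remaining Paf1 complex genes passed it, Rtf1 with 3.21 and Wdr61 with 7.53, as did Supt4a, the partner of Supt5h in DSIF, with 5.58, and both genes of the histone chaperone FACT, with 4.84 and 7.19. Of the 7 genes of the super elongation complex, which recruits P-TEFb, 2 passed it for Nsl1 and 2 for Msl1. For Nsl1 it was also passed by 1 of the 4 partners of 7SK and P-TEFb, 1 of the 3 genes of Cdk12, Cdk13 and their cyclin, 2 of the 3 elongin genes and 2 of the 3 remaining genes.

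Larp7, which binds the 7SK RNA that Hexim1 needs, had the highest Nsl1 level of the 29, 10.3 times local, and a ratio of Msl1 to Nsl1 reads of 0.470, the 1 value at 0.5 or less. Ccnk, the cyclin of Cdk12 and Cdk13, had the lowest Nsl1 level, 0.703. For Msl1 the highest level was 7.49 at Tceb2, an elongin subunit gene, and the lowest 0.969 at Aff4 of the super elongation complex. Genes with a ratio of 2 or more, as 13.2% of all TSSs had, included Tceb2 (3.37), Hexim2 (2.38), Tcea1 (2.12) and Aff4 (2.11). These ratios are per library total and were not divided by the local levels, a step that lowered the ratios of the 10 members. Hexim2, the paralogue of Hexim1, starts 17020 bases from it, so their local levels share sequence. The downstream ratio of the 29 genes had a median of 0.752 for Msl1 and 0.316 for Nsl1. The largest Msl1 downstream ratio among them, 2.20 at Mepce, the 7SK capping enzyme, was close to the 2.19 of Hexim1.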

How the data were processed

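The data were 2 ChIP-seq libraries from wild type mESCs, 1 precipitated with anti-Msl1 and 1 with anti-Nsl1. The submitters' processing notes name CASAVA 1.8.2 and Bowtie 0.12.7, and the methods state mm9. The authors deposited 1 line per aligned read with position, strand and an alignment score, not normalized. The deposited score was the same on every line and was not used.

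The rule for the members uses names alone, but the members and the list of 29 other genes were chosen with earlier results of these data known. The libraries held 23888517 and 26084098 reads. Of the nuclear reads 1 was kept per position and strand, and mitochondrial reads (0.146% and 0.0473%) were left out. Each read was counted at the middle of its fragment, whose length was the maximum of the strand cross-correlation between 80 and 400 bases (205 for Msl1, 135 for Nsl1). The annotation was GENCODE vM1 on NCBIM37, and a TSS was the start of most protein-coding transcripts. Starts of 9 of the 10 genes were matched by sequence to RefSeq promoters, which were used only to compare starts. Nelfa, Nelfb, Nelfcd, Nelfe and Supt4a appear in the annotation as Whsc2, Cobra1, Th1l, Rdbp and Supt4h1. All 10 members were named, and of the 29 other genes the highest and the lowest in each library. Rtf1, Wdr61, Supt4a, Mepce and those named for a ratio past 2 were picked after their values were seen. The values of 1 of the 29 genes are not reported here.

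Python 3.11.15, numpy 2.4.6, pandas 2.3.3, scipy 1.17.1 and matplotlib 3.10.9 were used. The counting was tested on simulated data first. The windows of 500 bases held 20 to 97 reads, which sets the width of the intervals. PCR reads are not independent molecules. The alternatives tried were all reads kept, a shift of 100 bases in both libraries, a window of 1000 bases, the genome level in place of the local level, the 5′-most start, a local level without annotated TSSs, a downstream window from 1000 bases, all TSSs without the minimum of 20 reads, and each library divided by its local level. After seeing the data the RefSeq starts and leaving out each member in turn were added.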

Additional observations from a re-analysis of the deposited data

How the results depend on the processing

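No paired analysis was possible because each antibody has 1 library, and no replicate error can be given. The number of members at 3 times the background or more in the Msl1 library was 1 as reported (29.7% of all TSSs), 2 with all aligned reads kept (28.9%) or with annotated TSSs left out of the local level (32.7%), 3 with windows of 1000 bases (22.9%) or from the RefSeq starts (chosen after seeing the data, no share computed), and 7 over the genome level (33%). Without the minimum of 20 reads the share of all TSSs was 23.7% for Msl1 and 24.1% for Nsl1. The median Msl1 level was 3.98 over the genome level, and the median Nsl1 level 2.31 with windows of 1000 bases. The pooled Msl1 downstream ratio was 1.33 from the 5′-most TSSs, 0.916 with the window from 1000 bases and 0.979 from the RefSeq starts. With each library divided by its local level the median ratio of Msl1 to Nsl1 was 1.16, 1 member reached 2, and the ratio fell below 1 at Leo1 (0.908), Paf1 (0.988) and Supt5h (0.679). From the 5′-most TSS the Msl1 level at Ccnt1 was 0.928. The causes of these changes were not tested. The Nsl1 count, 6 as reported (30.1% of all TSSs), ran from 4 with windows of 1000 bases (17.0%) to 8 with annotated TSSs left out of the local level (32.1%). Without any 1 member, the median level ran from 2.28 to 2.30 for Msl1 and from 3.05 to 3.34 for Nsl1.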
